A study of Mus musculus with 30 samples.

Results

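The comparison set parental lymphoma cells at 12 h of mafosfamide against the same cells at 6 h, with 4 arrays at each time, 8 of the 30 in the series. Members were chosen by the time in the sample titles, and a 12 h array was paired with the 6 h array that carries the same replicate number, 2 to 5, in its description. Arrays that share a number are called a culture here. The labels do not say whether a number stands for 1 flask sampled repeatedly.

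All 8 samples were Eµ-Myc; Cdkn2a-/- B cells on a C57BL/6J background, grown on irradiated mouse embryonic fibroblasts that also lacked Cdkn2a, and mafosfamide had been added to 750 nM at 0 h. The cells came from 1 lymphoma line, so the p-values rest on how far changes over time varied between its cultures. They do not measure the spread between tumours or mice. The Eµ-Myc transgene drives Myc from an immunoglobulin heavy chain enhancer, which is active in B-lineage cells. There was no untreated array at 6 h or 12 h, so time with drug and time in culture cannot be told apart. The other parental arrays (0, 24 and 48 h, 5 each) entered the fit to estimate the spread. The remaining samples were mafosfamide-resistant lines, derived from these cells by escalating doses of the drug. Each line is named by its selection dose in nM.

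Mafosfamide is a form of cyclophosphamide that is active in culture and crosslinks DNA. Damaged DNA activates the kinases ATM and ATR, which stabilise the transcription factor p53. Its targets include genes that stop the cell cycle, genes that promote apoptosis, genes of repair and metabolism, and genes that restrain p53 itself. Loss of the Cdkn2a locus removes p19ARF, which protects p53 from Mdm2 when Myc is overactive, while the route from DNA damage to p53 does not need p19ARF.

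Promoter sequences of 4 of the 6 genes that rose and had a match are printed because they hold letters close to the sequence that p53 binds. The p53 site consists of paired half-sites of 10 bases, and the half-site consensus reads the same on both strands. Each line gives the 250 bases before and 50 bases after a transcription start in RefSeq, on assembly GRCm38.p6, 5′ to 3′ on the gene's own strand. Capitals mark an exact half-site, or the best pair of half-sites with up to 2 mismatches in all and at most 13 bases between them.
Ccng1 (chr11:40755237-40755536, minus strand): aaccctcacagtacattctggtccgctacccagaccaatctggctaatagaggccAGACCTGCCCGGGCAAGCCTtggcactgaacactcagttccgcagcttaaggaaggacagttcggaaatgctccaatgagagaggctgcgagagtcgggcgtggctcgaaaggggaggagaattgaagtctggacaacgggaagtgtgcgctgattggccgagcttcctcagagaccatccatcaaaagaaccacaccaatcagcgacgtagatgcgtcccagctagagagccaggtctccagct
Cd80 (chr16:38458683-38458982, plus strand): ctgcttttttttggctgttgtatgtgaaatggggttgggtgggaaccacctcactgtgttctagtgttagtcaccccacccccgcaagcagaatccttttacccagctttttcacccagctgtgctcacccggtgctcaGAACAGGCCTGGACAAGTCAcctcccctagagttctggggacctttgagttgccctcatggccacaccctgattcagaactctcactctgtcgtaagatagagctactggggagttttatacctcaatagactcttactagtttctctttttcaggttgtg
Exoc4 (chr6:33248878-33249177, plus strand): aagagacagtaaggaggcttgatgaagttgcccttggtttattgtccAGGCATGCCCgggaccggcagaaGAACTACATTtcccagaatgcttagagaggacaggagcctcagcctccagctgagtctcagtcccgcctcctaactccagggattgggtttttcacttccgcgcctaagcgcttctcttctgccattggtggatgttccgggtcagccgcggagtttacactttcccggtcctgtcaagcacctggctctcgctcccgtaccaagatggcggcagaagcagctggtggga
Ier5 (chr1:155099587-155099886, minus strand): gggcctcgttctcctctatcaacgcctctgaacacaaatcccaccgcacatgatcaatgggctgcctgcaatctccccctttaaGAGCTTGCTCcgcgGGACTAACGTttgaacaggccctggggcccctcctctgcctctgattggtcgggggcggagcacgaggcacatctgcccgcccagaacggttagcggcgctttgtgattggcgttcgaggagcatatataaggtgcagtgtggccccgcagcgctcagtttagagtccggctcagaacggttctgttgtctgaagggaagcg

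The Ccng1 promoter held a pair with no bases between the half-sites and 1 mismatch, starting at position -195 from the start site. The Cd80 pair also had no spacer but carried 2 mismatches, and no exact half-site was present. The Exoc4 and Ier5 pairs carried 2 mismatches each, with 13 and 4 bases between the half-sites. In these pairs the first half-site was exact and the mismatches lay in the second. The other matches, not printed, were an exact half-site in Fetub at -37 and a pair with 2 mismatches in St3gal6. The promoters of the p53 targets Psrc1, Plk2 and Dglucy held neither in these windows. Of the 30 genes that rose, 21 had a promoter in the table, in 25 entries. An exact half-site stood in 4 of the 25 entries (16%), against 8.36% of all 32851 promoters, and a pair stood in 5 (20%), against 10.1%. An entry could count for both, and 3 did. These 25 entries also held TTTGAA in 3 cases (12%, all promoters 17.9%) and CCAAT in 14 (56%, all promoters 37.4%), each searched on both strands. A match describes the letters only, and binding was not measured here.

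Between 6 h and 12 h, 30 of 19937 genes rose and none fell at an adjusted p threshold of 0.05 (limma with culture as a term, Benjamini-Hochberg over all genes), which is 0.150% of the genes tested. Values are deposited log2 expression, so a difference of 1 is a doubling. The 30 rises ran from 0.33 to 1.97 on the log2 scale, and 6 were at least 2-fold. At an unadjusted p under 0.05, 724 genes lay higher and 574 lower at 12 h, and the median change over all genes was -0.01. The lower gene with the smallest p was Lce1l, at -0.29 (SE 0.06, adjusted p = 0.0849), named after its value was seen. The count depended on the fit. Without the culture term 7 of the 30 passed and none fell, with culture as a random block 16 passed, and with weights for array quality 405 passed, 277 higher and 128 lower. Leaving out 1 array gave counts from 10, without the 6 h array of culture 5, to 43, without the fifth 0 h array. Among 25 alternative fits Cd80, Dglucy, Exoc4, Psrc1 and Zmat3 passed in all. Sh3pxd2a passed in 3, Ddt in 4, Scamp5 in 6, Gas7 and Nes in 7, Pdcl in 8, Ccng1 and Plk2 in 9, Bst2 and Cemip2 in 10, St3gal6 and Vaultrc5 in 11, and Commd3, Fetub, Klhl14 and Pvt1 in 12, so most alternatives ended those calls.

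All 30 genes were higher at 12 h in all 4 cultures, which was true of 11.0% of all genes, while 9.98% of all genes were lower in all 4. In 21 of the 30 every 12 h array lay above every 6 h array, against 1.44% of all genes. Both counts are largely set by the choice of these genes, which used the same arrays and the same pairs. Of the 30, 28 are annotated as protein coding and 2 as long noncoding RNA.

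**Figure D1:**
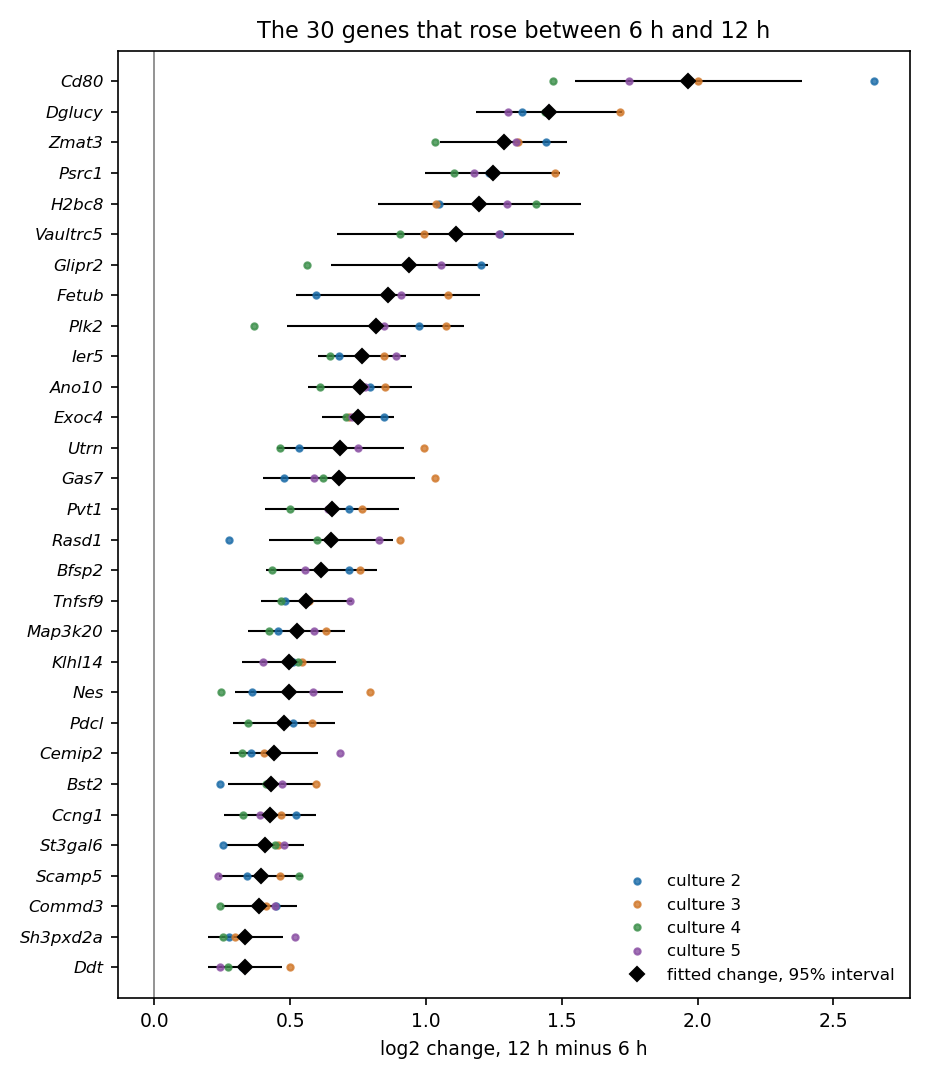
Log2 change from 6 h to 12 h (horizontal axis) of the 30 genes that rose, with the fitted change and its 95% interval in black and the difference in each culture as a coloured point. All points lie to the right of 0, and Cd80 has both the highest change, 1.97, and the widest spread between cultures of the leading genes, from 1.47 to 2.65.

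The gene with the highest fitted change was Cd80, which encodes the ligand B7-1 that binds CD28 and CTLA-4 on T cells. At 6 h it stood at 7.60, 7.70, 8.49 and 7.86 in cultures 2, 3, 4 and 5. At 12 h it stood at 10.25, 9.70, 9.96 and 9.61 in the same order. The times did not overlap, and culture 4, the highest at 6 h, had the smallest difference. The change was 1.97 (SE 0.20, adjusted p = 3.0e-05), a 3.91-fold rise. A second Cd80 probe set, not used in the test, changed by 1.42. Tnfsf9, the 4-1BB ligand and another T-cell costimulator, rose less, by 0.56 (SE 0.08, adjusted p = 0.00307). Its 6 h values of 6.56 to 7.31 and its 12 h values of 7.04 to 7.78 overlapped, although each culture was higher at 12 h. Of the 22 measured genes of costimulation and antigen presentation these were the 2 that passed. The list median was 0.08. In all 4 cultures 8 members were higher (36.4%, against 11.0% of all genes) and 3 lower (13.6%, against 9.98%). Cd86, the other ligand of CD28, stood at 0.31 (adjusted p = 0.53).

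Genes of the p53 list concerned with arrest supplied 3 rises among 12 measured, where 0.150% of all genes rose. Zmat3, whose zinc finger product binds RNA and is induced by p53, stood at 7.79, 8.03, 8.37 and 7.90 at 6 h. At 12 h it stood at 9.23, 9.37, 9.40 and 9.24, so the 4 arrays drew closer together and all lay above the 6 h arrays. Its rise was 2.44-fold (log2 change 1.29, SE 0.11, adjusted p = 6.3e-06). Psrc1, a microtubule-associated protein that p53 induces, had 6 h values of 9.41, 9.33, 9.71 and 9.54. Its 12 h values were 10.64, 10.80, 10.82 and 10.71, again with no overlap (log2 change 1.25, SE 0.12, adjusted p = 1.5e-05). Plk2, a polo-like kinase, rose by 0.82 (SE 0.16, adjusted p = 0.0363), with differences between 0.37 in culture 4 and 1.07 in culture 3 and overlapping times. Btg2, an antiproliferative gene, stood at 0.02 and did not pass. The list median was 0.08. Cdkn1a, the p21 gene, was not analysed here, since no probe set carried its symbol alone.

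Dglucy, which encodes a mitochondrial D-glutamate cyclase, was the 1 gene of 16 in the list of p53 targets in metabolism and repair that passed. It lay between 6.61 and 6.82 in the 4 cultures at 6 h. At 12 h it stood at 7.96, 8.34, 8.26 and 7.93, more than 1 log2 unit above every 6 h array. The rise was 2.74-fold (log2 change 1.45, SE 0.13, adjusted p = 6.3e-06). Polk, a translesion polymerase, stood at 0.52 (adjusted p = 0.316) and Ercc5, an excision repair nuclease, at 0.25 (adjusted p = 0.272), both with no overlap between times. With the 8 compared arrays alone Polk passed (adjusted p = 0.0412) and Ercc5 did not (adjusted p = 0.14). Without the culture term neither passed (adjusted p = 0.999 for each). Of the list, 8 members (50%, against 11.0% of all genes) were higher and none lower in all 4 cultures.

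Among 7 measured genes of p53 feedback, Ccng1 rose. It encodes cyclin G1, which recruits a phosphatase to Mdm2. Its 6 h values of 12.80, 12.78, 12.96 and 12.87 and its 12 h values of 13.32, 13.25, 13.29 and 13.26 did not overlap. The change was small, 0.43 (SE 0.08, adjusted p = 0.0363). Mdm2, the ligase that degrades p53, stood at 0.32 with a 95% interval of 0.11 to 0.54, higher in all 4 cultures without passing (adjusted p = 0.48). The list median was 0.16, and all 7 members lay above 0, against 46.1% of all genes.

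None of the 15 measured p53 targets of apoptosis passed in the reported fit. All 15 lay above 0, against 46.1% of all genes, with a median of 0.19. In all 4 cultures 8 were higher (53.3%, against 11.0% of all genes). Phlda3, an inhibitor of Akt, was nearest the threshold. Its 6 h values were 7.95, 8.01, 8.65 and 8.07 and its 12 h values 9.28, 9.03, 9.36 and 9.24. The times did not overlap, yet the fitted change of 1.06 had an SE of 0.23 (adjusted p = 0.0866). With the 8 compared arrays alone Phlda3 passed (adjusted p = 0.00283), and without the culture term it did not (adjusted p = 0.534). Pmaip1, which encodes the BH3-only protein Noxa, stood at 0.31 (adjusted p = 0.316), Bbc3, which encodes Puma, at 0.20 (adjusted p = 0.787) and the death receptor Fas at 0.02. Bax had no probe set of its own symbol. Genes of the BCL2 family had a median of 0.00, and none of 15 passed.

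**Figure D2:**
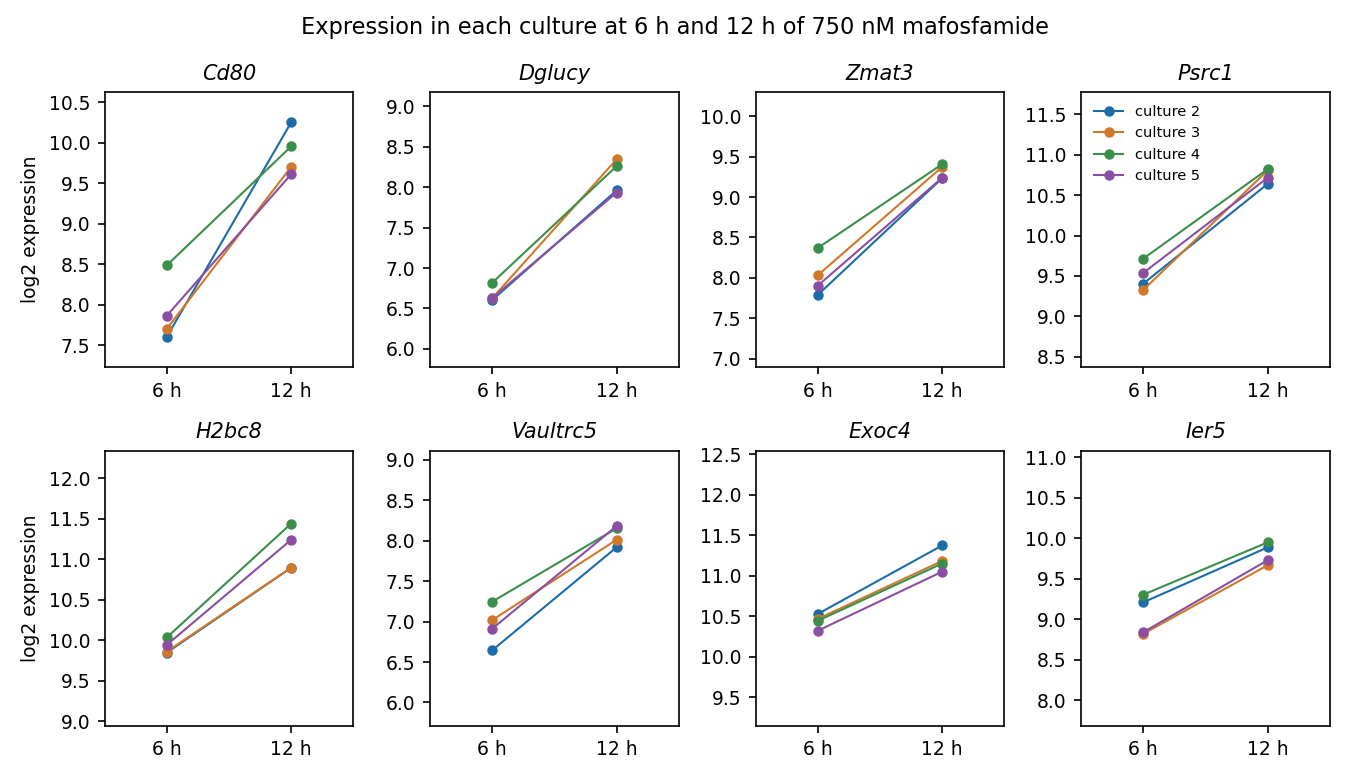
Log2 expression at 6 h and 12 h of 8 genes that rose, with 1 line per culture and a vertical axis of the same length in each panel. The lines of Exoc4 run nearly parallel, with differences from 0.71 to 0.85, while those of Cd80 cross.

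Other genes that rose belong to varied functions. Exoc4, a subunit of the exocyst that tethers secretory vesicles, had one of the lowest adjusted p-values. It stood at 10.53, 10.47, 10.44 and 10.32 at 6 h and at 11.37, 11.18, 11.15 and 11.05 at 12 h. The cultures kept their order and moved by nearly the same amount, which gave a change of 0.75 (SE 0.06, adjusted p = 6.3e-06). Ier5, an immediate early response gene, stood at 9.21, 8.82, 9.30 and 8.84 at 6 h. At 12 h it stood at 9.89, 9.67, 9.95 and 9.73, and the change was 0.77 (SE 0.08, adjusted p = 3.0e-05). It was the 1 gene of 24 in the immediate early list to pass. Jun, a subunit of the factor AP-1, had a higher fitted change of 1.30 but an SE of 0.35 (adjusted p = 0.31). Its 6 h values ranged from 8.39 to 9.86, while its differences in cultures 2 to 5 were 1.46, 1.36, 1.09 and 1.27. All parental times entered the SE, and its 0 h values ranged from 8.48 to 10.95. With the 8 compared arrays alone Jun passed (adjusted p = 0.000237), and without the culture term it did not (adjusted p = 0.999). In that list 12 members (50%, against 11.0% of all genes) were higher and none lower in all 4 cultures, and the median was 0.14.

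H2bc8, a replication-dependent histone H2B gene, stood at 9.85, 9.86, 10.04 and 9.94 at 6 h. At 12 h it stood at 10.89, 10.90, 11.44 and 11.24, with no overlap (log2 change 1.20, SE 0.18, adjusted p = 0.00443). H2bc8 was outside the histone list, of whose 15 measured genes none passed in the reported fit. Of these, 13 lay above 0 (86.7%, against 46.1% of all genes) and 8 were higher in all 4 cultures (53.3%, against 11.0%). The linker histone gene H1f3 had the highest fitted change of that list, 0.65 (adjusted p = 0.224). With the 8 compared arrays alone H1f3, H4c9 and H1f2 passed (adjusted p = 0.0145, 0.0168 and 0.0160). Without the culture term they did not (adjusted p = 0.429, 0.999 and 0.999). Histone genes are close copies of each other, so the share of H2bc8 itself in its probe set's signal is uncertain.

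The 2 noncoding genes were Vaultrc5, a vault RNA, which rose by 1.11 (SE 0.21, adjusted p = 0.0346), and Pvt1, the neighbour of Myc. Pvt1 rose by 0.66 (SE 0.12, adjusted p = 0.0241), and a second, dim Pvt1 probe set with a mean of 3.81 changed by 0.02. Myc itself stood at 13.19, 12.98, 13.09 and 13.09 at 6 h and at 13.11, 13.08, 13.05 and 13.05 at 12 h. The Myc change was -0.02, with a 95% interval from -0.13 to 0.10. Genes beyond the 12 largest rises and the list members are named because they passed, after their values were seen.

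Of genes that act at membranes and in trafficking, Glipr2, a Golgi-associated protein, rose by 0.94 (adjusted p = 0.0040) with no overlap between times. Ano10, of the anoctamin family, rose by 0.76 (adjusted p = 0.000357), and Scamp5, a secretory carrier membrane protein, by 0.39 (adjusted p = 0.0346). St3gal6, a sialyltransferase, rose by 0.41 (adjusted p = 0.0129). Cemip2, a transmembrane protein that degrades hyaluronan, rose by 0.44 (adjusted p = 0.0198). Bst2, the antiviral protein tetherin, rose by 0.43 (adjusted p = 0.0198) and was the 1 gene of 24 in the interferon list to pass. The median of that list was 0.04.

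Of cytoskeletal genes, Utrn, which encodes utrophin, rose by 0.69 (adjusted p = 0.0113), and Gas7, a growth-arrest gene that remodels actin, by 0.68 (adjusted p = 0.0452). The intermediate filament genes Bfsp2 and Nes rose by 0.62 (adjusted p = 0.00963) and 0.50 (adjusted p = 0.0363), and the podosome scaffold Sh3pxd2a by 0.34 (adjusted p = 0.0452). Utrn, Gas7, Nes and Sh3pxd2a had overlapping times, although each culture was higher at 12 h. Of signalling genes, Rasd1, a Ras-related GTPase, rose by 0.65 (adjusted p = 0.0129). Map3k20, a kinase of the stress response to stalled ribosomes, rose by 0.52 (adjusted p = 0.0113). Pdcl, a chaperone of G protein subunits, rose by 0.48 (adjusted p = 0.0346), and Klhl14, a Kelch protein of B cells, by 0.50 (adjusted p = 0.0129). The remaining 3 were Fetub, a secreted protease inhibitor, at 0.86 (adjusted p = 0.0346), Commd3, a COMM domain protein, at 0.39 (adjusted p = 0.0159) and Ddt, D-dopachrome tautomerase, at 0.33 (adjusted p = 0.0452).

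**Figure D3:**
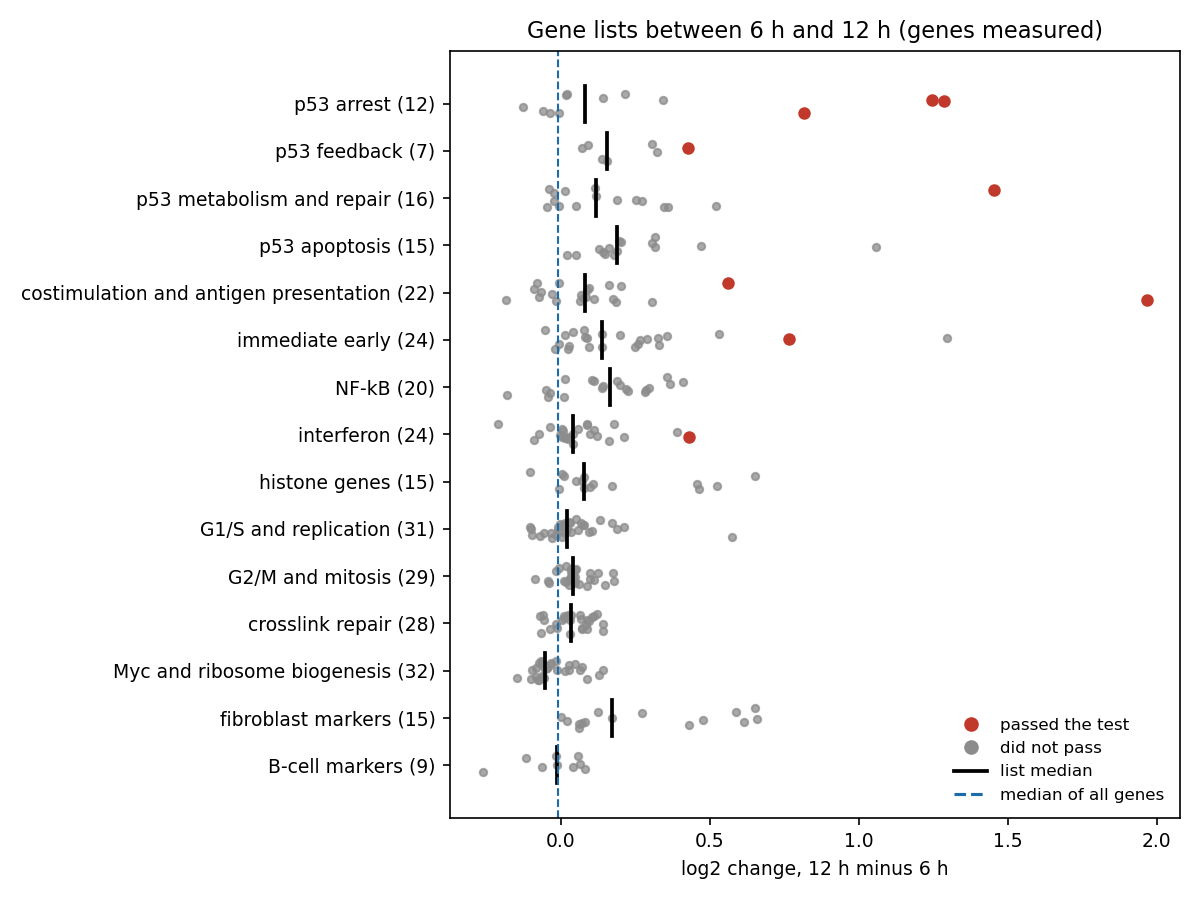
Log2 change from 6 h to 12 h of every measured gene of 15 lists (number measured in brackets), with genes that passed in red, list medians as black bars and the median of all genes as a dashed line. The medians of the 4 p53 lists lie to the right of the dashed line, and genes of Myc and ribosome biogenesis have a median of -0.05.

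Lists with no gene past the threshold covered most of the cell cycle and repair machinery. Genes of G1/S and replication had a median of 0.02 (31 measured), genes of G2/M and mitosis 0.04 (29 measured) and genes of crosslink repair 0.03 (28 measured). In these lists 64.5%, 82.8% and 75% lay above 0, against 46.1% of all genes. In all 4 cultures 10, 6 and 3 were higher (32.3%, 20.7% and 10.7%, against 11.0%). Lower in all 4 were 1, 0 and 0 (3.23%, 0% and 0%, against 9.98%). In the damage checkpoint list no member of 21 was higher in all 4 cultures, against 11.0% of all genes, and 1 was lower, against 9.98%. The NF-kB list, which includes members of the pathway itself, had a median of 0.16, with 12 of 20 higher in all 4 cultures (60% against 11.0% of all genes). Bcl3, an NF-kB cofactor, stood at 0.41 (adjusted p = 0.242) and Tnf, a cytokine gene that NF-kB induces, at 0.37 (adjusted p = 0.654). In the list of Myc and ribosome biogenesis 23 of 32 lay below 0, and 28.1% lay above, against 46.1% of all genes above. The median was -0.05, and 8 were lower in all 4 cultures (25% against 9.98% of all genes). Ubtf, the factor that activates ribosomal RNA genes, stood at -0.15 (SE 0.05, adjusted p = 0.461). Ribosomal protein genes had a median of 0.01.

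The step from 6 h to 12 h was tested directly against the step of the same length from 0 h to 6 h, with the same arrays at 6 h in both. The difference passed for 5 genes, 0.0251% of those tested, all with a higher second step, and at an unadjusted p under 0.05 for 438 higher and 401 lower. Leaving out 1 array or culture gave counts from 0 to 9, the highest without the fifth 0 h array. Dglucy changed by -0.02 in the first step and by 1.45 in the second, a difference of 1.48 (SE 0.22, adjusted p = 0.0143). Exoc4 changed by 0.09 and then 0.75, a difference of 0.66 (SE 0.11, adjusted p = 0.0349). For the next 3 genes the first step was itself a fall. Rasd1 fell by 0.61 before it rose by 0.65 (difference 1.26, SE 0.19, adjusted p = 0.0143). Klhl14 fell by 0.55 and rose by 0.50 (difference 1.05, SE 0.14, adjusted p = 0.0131), and its 12 h mean of 8.42 was close to its 0 h mean of 8.46. Cyth1, an exchange factor for ARF GTPases, fell by 0.45, and its second step of 0.15 did not pass (difference 0.60, adjusted p = 0.0143).

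**Figure D4:**
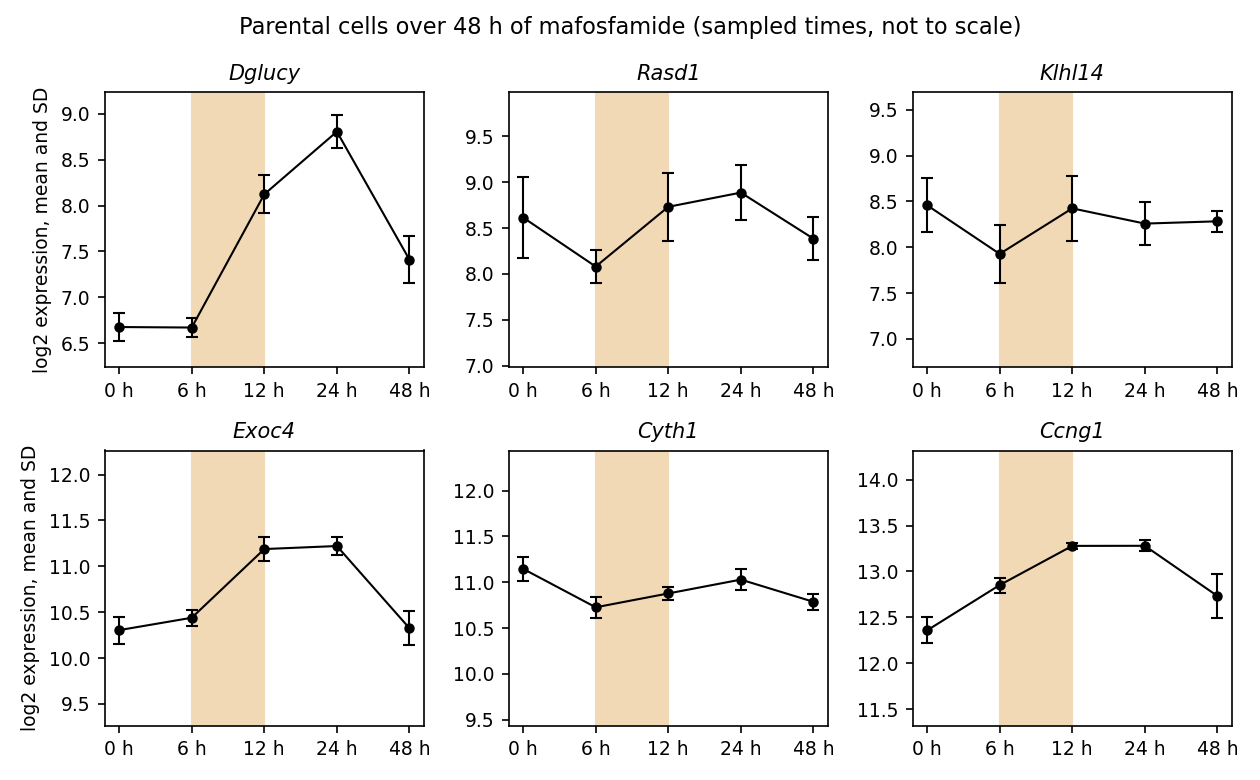
Mean log2 expression with SD at 5 sampled times (4 arrays at 6 h and 12 h, 5 at the others; shaded from 6 h to 12 h) of the 5 genes whose steps differed and of Ccng1. Dglucy stays at 6.68 and 6.67 until 6 h and then climbs, Rasd1 and Klhl14 dip at 6 h, and Ccng1 climbs in both steps.

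Over the whole time course the 12 h mean was the highest of the 5 for 10 of the 30 genes (15.3% of all genes), and the 24 h mean for 19 (21.8% of all genes). The 48 h mean was the highest for none (12.4% of all genes). Since the genes were chosen for a 12 h level above the 6 h level, these counts are partly set by that choice. In the first step 20 of the 30 lay above 0 and 10 below, 3 rose (0.166% of all genes) and 2 fell (0.145% of all genes). Ccng1 rose by 0.50 in the first step (adjusted p = 0.00841), Ier5 by 0.44 (adjusted p = 0.0117) and Psrc1 by 0.58 (adjusted p = 0.0347). Zmat3 stood at 0.50 there (adjusted p = 0.0545) and Cd80 at 0.76 (adjusted p = 0.108). From 12 h to 24 h, 6 of the 30 rose (1.37% of all genes) and 3 fell (0.933% of all genes). Dglucy rose further by 0.70 (adjusted p = 0.0101). H2bc8 fell by 0.90 (adjusted p = 0.0139), to a 24 h mean of 10.18 that equalled its 0 h mean to 2 decimals. Ier5 fell by 0.45 and Ddt by 0.44. These steps share arrays, so their values are given side by side only.

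In the 3 resistant lines measured once each after 24 h at 750 nM, 21 of the 30 genes were higher than in the untreated line in all 3, against 14.5% of all genes, and Ddt was lower in all 3. These differences rest on single arrays and carry no test. Dglucy differed by 0.97 in R500, 0.96 in R1000 and 2.10 in R4000, and Zmat3 by 1.26, 1.29 and 1.82. H2bc8 differed by -0.37, 0.10 and 0.17.

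The labelled cell type was checked against markers. The 9 measured B-cell markers, among them Pax5 and Ebf1, had a mean of 11.91 ± 0.33 at 6 h and 11.88 ± 0.37 at 12 h (SD, n = 4). Fibroblast markers moved with the comparison. All 15 lay above 0 (46.1% of all genes) with a median of 0.17, 8 were higher in all 4 cultures (53.3%, against 11.0%), and none passed. The list mean was 8.57 ± 0.17 at 6 h (8.37 to 8.75) and 8.85 ± 0.25 at 12 h (8.50 to 9.07), so the ranges overlapped, against 8.72 at 0 h and 9.65 at 24 h. Acta2, a smooth muscle actin, stood at 0.66 (adjusted p = 0.371) and Cav1, a caveola protein, at 0.65 (adjusted p = 0.757). None of these markers was at a true 0, since array values have no such level. Any RNA of feeder fibroblasts was measured together with that of the lymphoma cells, and its share is not known. More cells of a type cannot be told apart from more RNA per cell.

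With the fibroblast list mean as a term in the fit, 33 genes passed, 32 higher and 1 lower, and 22 of the 30 were among them. Cd80 stood at 1.75, Dglucy at 1.36, Zmat3 at 1.25, Psrc1 at 1.28 and Exoc4 at 0.69, all past the threshold. Plk2 at 0.71 (adjusted p = 0.0757) and Ccng1 at 0.38 (adjusted p = 0.0798) no longer passed. The same held for Pvt1, Vaultrc5, Nes, Scamp5, Ddt and Sh3pxd2a.

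**Figure D5:**
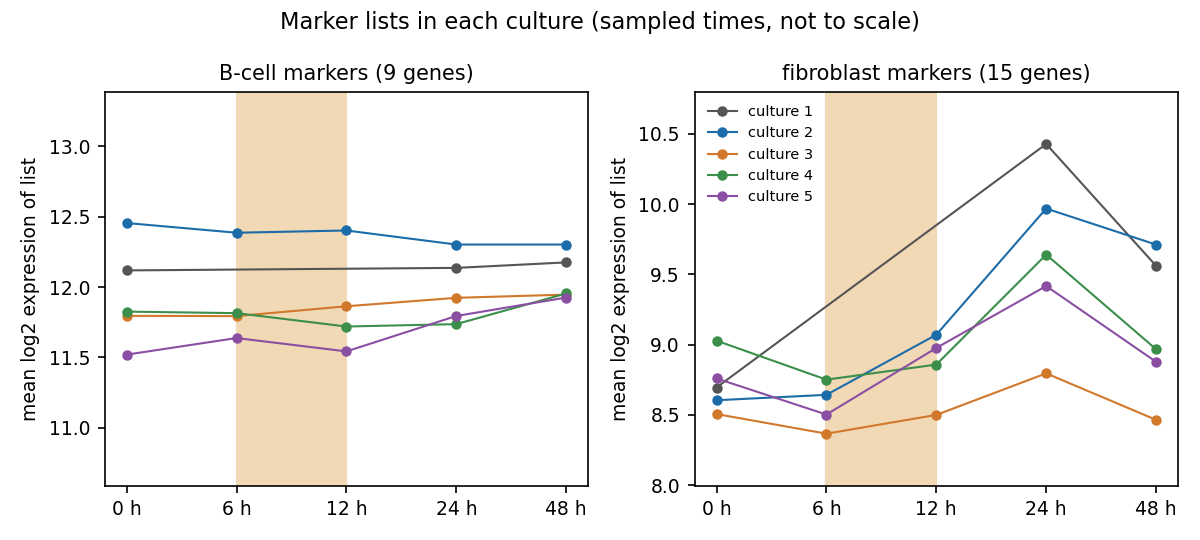
Mean log2 expression of the B-cell and fibroblast marker lists in each culture at the 5 sampled times, with the step from 6 h to 12 h shaded. Culture 1 was not sampled at 6 h or 12 h, and its line joins 0 h to 24 h. The fibroblast list stands higher at 12 h than at 6 h in each of the 4 cultures, and the B-cell list shows no common direction.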

How the data were processed

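RNA of 30 samples was hybridised to Affymetrix Mouse Gene ST 1.0 arrays, 1 array a sample. The authors summarised probe sets by robust multi-array averaging (RMA, affy package), which made the deposited log2 expression values. That step gives every array the same intensity distribution, so altered RNA content per cell cannot be seen, and it compresses small changes of dim probe sets. RMA, affy and mm9 are the names in the submitters' processing notes. Array medians of the 8 samples lay between 7.28 and 7.39. Precision is limited by the number of arrays.

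Of 34760 probe sets, 21640 carried 1 gene symbol in the platform annotation, 1321 several and 11799 none listed here. A gene with several probe sets (954) kept its brightest probe set on average, and 19937 genes were tested. RefSeq tables of GRCm38.p6 gave biotypes and promoters.

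The 23 parental arrays were fitted with limma 3.58.1 in R 4.3.3 (lmFit, eBayes) with time and the culture number of the description as terms. The second test was the difference between the 6 h to 12 h and the 0 h to 6 h steps. P-values were adjusted over all genes by Benjamini-Hochberg. The fit was tested on simulated data. The numbers were taken to pair the samples, as the comparison was defined. Deviations of a 6 h and a 12 h array of one number from their group means were correlated over genes. The r values were 0.77, 0.23, 0.53 and 0.54 for cultures 2 to 5, each above the correlation with any other number. For culture 3 the margin was narrow, with 0.15 for the closest other number. The titles number these arrays differently but pair them the same way. Genes were picked as the 12 largest rises, the 3 lowest p-values of every list, fixed names (Zmat3, Psrc1, Ccng1, Cd80, Mdm2, Bbc3, Pmaip1, Bax, Fas, Btg2, Myc, Cirbp, Insig1, Tnf, Cdkn2a, Slc19a2, Gclm), the other genes that passed and Lce1l. Not every list member picked in this way is described in the text. The comparison, the lists and the tests were chosen with earlier results of these data known.

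Fixed names without an account elsewhere had 12 h minus 6 h values of 0.01 (Cirbp), -0.08 (Insig1), 0.09 (Cdkn2a), 0.27 (Slc19a2) and -0.03 (Gclm), none past the threshold. Lists without an account elsewhere had medians between -0.07 and 0.09, and none of their genes passed in the reported fit. Of the B-lineage identity list, 14 of 32 were higher in all 4 cultures (43.8%, against 11.0% of all genes) and 3 lower (9.38%, against 9.98%). Igll1 had its highest fitted change, 0.95 (adjusted p = 0.324). Of the oxidant response and glutathione list, 12 of 27 were higher (44.4%) and 2 lower (7.41%). Ephx1, of the oxidant response and glutathione list, stood at 1.19 (adjusted p = 0.242) with no overlap between times. With the 8 compared arrays alone Ephx1 passed (adjusted p = 0.00169), and without the culture term it did not (adjusted p = 0.999). Alternatives were another block, other sets of arrays, centring, dim genes, probe-set rule, eBayes options, array weights and a fibroblast term.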

Additional observations from a re-analysis of the deposited data

Results flagged for a closer look

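For the genes named by rule, 268 sets of 4 arrays (1 gene at 1 time) were checked for a single array far from the other 3. In 20 of them the gap to the nearest other array was a larger share of the set's range than Dixon's limit, where chance gives about 1 in 20. In 11 of the 20 the array was culture 2 at 12 h. That array was low for Aldh3b1 (9.90 against 11.18 to 11.27, gap 0.928 of the range), Rasd1 (8.17 against 8.90 to 8.93, 0.952), Ahsa1 (0.872), Ndufs3 (0.901), Cox5a (0.849) and Map3k20 (0.829). It was high for Bcl2 (0.858), Ddias (0.95), Kdm6a (0.953), Casp2 (0.9) and Glipr2 (0.91). At 6 h, culture 4 was high for Dglucy (0.89), Phlda3 (0.84), Gins2 (0.851) and Sesn2 (0.879), and culture 2 was high for Mxd1 (0.854), Cd3g (0.956) and Epor (0.845). Culture 5 was low for St3gal6 (0.861), and culture 3 for Per2 (0.871). Without culture 2, 18 genes passed, 15 of them among the 30.

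The tested difference between the second and the first 6 h step was 1.48 for Dglucy, 1.26 for Rasd1, 1.05 for Klhl14, 0.66 for Exoc4 and 0.60 for Cyth1.

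Among 13120 probe sets with several symbols or none, tested apart, 5 passed, all higher at 12 h. They were 10403938 (2.11, SE 0.16), 10408220 (1.43), 10403945 of H4c17 and H4c11 (0.93), 10563303 (0.56) and 10450367 of Hspa1a and Hspa1b (0.50). Probe set 10403938 stood at a mean of 10.04 at 6 h and 12.15 at 12 h, a larger change than that of any named gene that passed.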

How the results depend on the processing

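Against 30 genes in the reported fit, 7 passed without the replicate block, 16 with a random block and 12 with the numbers of the titles as the block, 66 (25 shared) with the 8 arrays alone, 18 (12 shared) with 13 arrays (0, 6 and 12 h) and 405 with array weights. For the difference between steps, against 5, the counts were 1 with no block, with a random block and with the title block, 3 with 13 arrays, 9 without the fifth 0 h array, 0 with housekeeping centring and 10 with array weights. Leaving out 6 h or 12 h arrays or whole cultures gave 7 to 24 genes between 6 h and 12 h and 0 to 6 for the steps, and leaving out the fifth 0 h array gave 43 for the first count. Without the 6 h array of cultures 2, 3, 4 and 5 the first count was 19, 11, 24 and 10, without the 12 h array 20, 12, 16 and 12, and without all arrays of that culture 18, 12, 9 and 7. The step count was 0 without the 6 h array of culture 3 or 5, the 12 h array of culture 3, or culture 3, 4 or 5 as a whole, and 3 without either array of culture 2. Of 25 alternatives 22 called no lower gene, and the exceptions were array weights (128), the fibroblast term (1) and the fit without the 6 h array of culture 4 (1). The cause of these shifts was not tested. Cd80, Dglucy, Exoc4, Psrc1 and Zmat3 passed in all 25 alternatives. No named rise changed sign among 749 values, of which 440 passed. Signs were largely set beforehand, since all 30 genes were higher in all 4 cultures and several alternatives leave the fitted change as it is.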
